A study of Arabidopsis thaliana with 18 samples.

Results

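The genes described here encode class III peroxidases, the secreted heme peroxidases of plants. They were taken from the deposited gene tables as the rows whose name was PER followed by a number. The pattern matched 70 rows, of which 1 is left out of the set, and the remaining 69 of 32833 genes are the members. Of these, 68 are class III peroxidases by their annotated product. The other, PER1 (AT1G48130), is annotated as a peroxiredoxin, a thiol peroxidase of seeds without heme, and fits the name pattern only. Peroxidase genes whose rows had no PER name were not members. Of these AT4G26010, AT4G33420 and AT5G17820 appear below as list genes, by their gene numbers. Members lay on every nuclear chromosome, 14, 13, 10, 13 and 19 on chromosomes 1 to 5, and 24 of them stood in 13 neighbouring pairs no more than 10000 bases apart.

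Class III peroxidases oxidise phenolic compounds with hydrogen peroxide in the cell wall. They couple monolignols into lignin, cross-link wall proteins such as extensins, and can also generate hydrogen peroxide and other reactive oxygen species that loosen walls or answer pathogens. In Arabidopsis, separate members are known for root hairs, for the lignin of xylem and of the Casparian strip (the wall band that seals the root endodermis), and for the oxidative burst of defence. The transcription factor UPB1 is known to repress some of them in the root, where the balance of superoxide and hydrogen peroxide sets the switch from cell division to elongation.

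Total RNA of whole seedlings of Arabidopsis thaliana, 3 days old and kept dark at 21 °C, was sequenced in 6 groups of 3 libraries. Col-0 was the reference accession, gnc gnl is mutant in a pair of genes for GATA transcription factors, GNC and GNL, while GNLox overexpresses the latter. Every genotype was in the Col-0 background, and each was raised on reduced-strength Murashige and Skoog medium without sucrose or with 1% sucrose. The labels give no mutant allele, no promoter for the GNLox transgene and no number of transgenic lines, and they do not say that replicates were separate cultures, so p-values measure the spread between these libraries.

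The tables held 27362791 to 41942516 gene reads per library. GNL stood at 5135, 6289 and 6191 CPM (read counts scaled to library size) in GNLox without sucrose and at 5.85, 21.8 and 12.9 CPM in Col-0. In gnc gnl without sucrose, GNC stood at 9.26, 9.23 and 8.51 CPM against 17.3, 35.4 and 29.4 CPM in Col-0, while GNL stood at 7.12, 10.6 and 11.1 CPM and overlapped Col-0. With sucrose, GNC in gnc gnl stood at 5.27, 6.31 and 6.41 CPM against 12.5, 18.6 and 12.1 CPM in Col-0 and was not called (adjusted p = 0.112). GNL there stood at 3.89, 5.32 and 3.16 CPM, above each Col-0 library at 0.971, 2.38 and 2.36 CPM (adjusted p = 0.252), which goes against the direction a loss of its reads would give. The labels do not say where the gnl lesion lies, so the name gnc gnl stands throughout for the libraries labelled so, and the gnl label is not checked by the reads. Ribosomal RNA took 1.0 to 25.43% of reads and plastid genes 0.91 to 23.29%, both highest in GNLox without sucrose replicate 3, whose results are given below with and without it. Among the 69 members, 6 averaged over 100 RPKM (the deposited level, scaled to gene length and library size), 17 lay between 10 and 100, 22 between 1 and 10, 16 between 0.1 and 1, and 8 under 0.1. No read was counted in any library for PER6 and PER41.

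A small number of genes carried most of the peroxidase reads. The 8 members with the highest mean RPKM held 76.7 to 82.8% of the summed CPM of the 68 class III members in every group. PER21 (AT2G37130, chr2:15597921-15600154 in TAIR10, minus strand, 7 exons) led with a mean of 988 RPKM over the 18 libraries, followed by PER42 with 443, PER34 with 294, PER32 with 201, PER69 with 193, PER50 with 103, PER3 with 91.8 and PER72 with 86.2 RPKM. PER34 is known for the oxidative burst against pathogens, PER3 was first described as the cold-induced gene RCI3, and PER72 is known for lignin.

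PER21 stood at 1388, 837 and 911 CPM in Col-0 without sucrose and at 3735, 3331 and 1994 CPM with it, a log2 ratio of 1.53 ± 0.39 (SE, adjusted p = 0.00443). Its share of the summed class III level was 27.5% without and 39.4% with sucrose in Col-0, 18.7 and 33.6% in gnc gnl, and 24.1 and 38.8% in GNLox. PER42 rose from 643, 593 and 587 to 1196, 1167 and 879.9 CPM in Col-0 (log2 0.83 ± 0.16, adjusted p = 0.000731). These groups did not overlap for either gene. PER34, at 683, 524 and 518 CPM without and 707, 674 and 475 CPM with sucrose, passed the test in no genotype (log2 0.11, 0.25 and 0.43 in Col-0, gnc gnl and GNLox). PER32 rose in Col-0 from 316, 205 and 186 to 551, 533 and 465 CPM and PER3 from 113, 78.4 and 64.4 to 165, 153 and 134 CPM, with log2 ratios of 1.13 ± 0.28 and 0.82 ± 0.28. The call of PER3 ended without Col-0 without sucrose replicate 2 or 3 or Col-0 with sucrose replicate 1 or 2 (adjusted p = 0.0501 to 0.104). PER50 and PER72 passed the sucrose test in no genotype, with levels of 183, 176 and 167 and 182, 113 and 108 CPM in Col-0 without sucrose and 184, 182 and 241 and 166, 154 and 179 CPM with it. PER69 was higher with sucrose in Col-0, 343, 199 and 163 against 518, 454 and 589.5 CPM (adjusted p = 0.00214), and missed the threshold in gnc gnl and GNLox (adjusted p = 0.987 and 0.289). The differences of the PER69 response from that in Col-0 did not pass the test (adjusted p = 0.461 and 0.308).

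**Figure D1:**
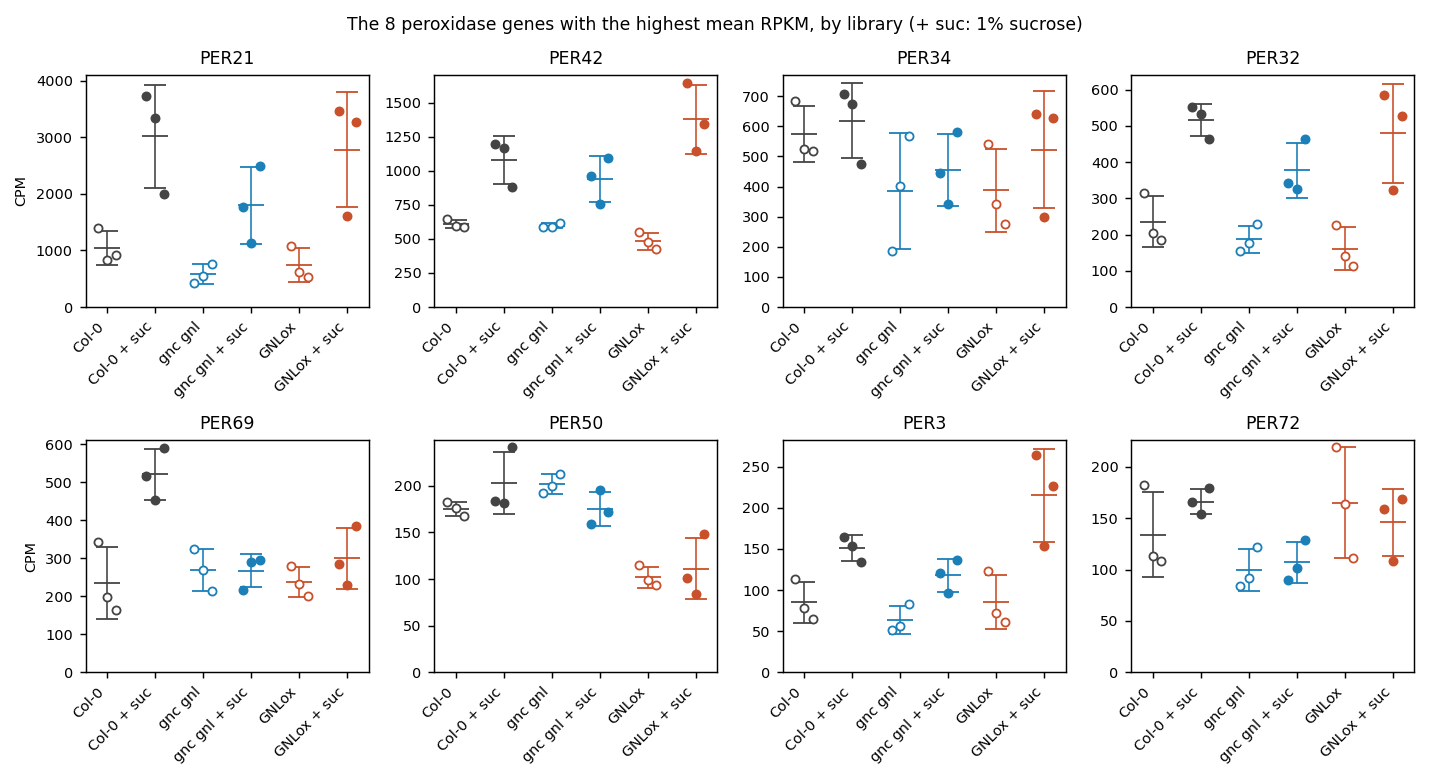
Levels of the 8 members with the highest mean RPKM. The y axes give CPM and start at 0. Circles are libraries (open without, filled with 1% sucrose), dashes and bars the mean ± SD of 3 libraries. PER21 rises from 1045 ± 299 to 3019.9 ± 911 CPM in Col-0, while PER34 and PER50 overlap between the media in Col-0.

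The first comparison was of sucrose against no sucrose within each genotype. With sucrose, the summed level of the class III members went from 3802 ± 796 to 7657 ± 1301 CPM (SD, n = 3) in Col-0, from 3104 ± 410.3 to 5348 ± 1159 CPM in gnc gnl and from 3079.5 ± 786 to 7159 ± 1858 CPM in GNLox. The groups did not overlap in any genotype. Of the 61 members with enough reads to be tested, 42 rose and 2 fell in Col-0, where 49.8% of all 21903 tested genes were called, 26% higher and 23.8% lower. In gnc gnl 31 rose and 2 fell, against 17.9 and 14.3% of all genes (32.2% together), and in GNLox 41 rose and 7 fell, against 28.7 and 26.1% (54.8% together). The median log2 ratio of the tested members was 1.21, 0.88 and 1.34 in Col-0, gnc gnl and GNLox, and that of all genes 0, 0 and 0.03. The 8 members not tested held at most 74 reads over the 18 libraries. A gene read only where it is high can pass the filter, so these counts describe the tested members and not the family. Without GNLox without sucrose replicate 3, 35 members rose and 6 fell in GNLox.

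Across the genotypes, 30 members rose in each of the 3, of which 21 kept every call in every alternative that gave a value. The other 9 (PER3, PER4, PER11, PER20, PER31, PER32, PER38, PER65 and PER66) lost a call in 1 or more. In gnc gnl, PER31 lost it without any 1 of the libraries (adjusted p = 0.0557 to 0.135), PER20 without replicate 2 or 3 on either medium (0.0615 to 0.106), PER65 without replicate 2 or 3 without sucrose or replicate 3 with it (0.0694 to 0.0913) and PER32 without replicate 3 with sucrose (0.0572). PER38 and PER65 lost the call in Col-0 without replicate 3 without sucrose (adjusted p = 0.0644 and 0.0636), PER20 that in GNLox without replicate 2 or 3 without sucrose or replicate 3 with it (0.0704 to 0.132), and PER11 that in gnc gnl with only the groups compared (0.0706). Another 5 (PER18, PER19, PER24, PER61 and PER71) passed the test in Col-0 and GNLox and 5 (PER16, PER17, PER33, PER48 and PER69) in Col-0 alone. In GNLox, PER18 lost its call without any 1 of the libraries (adjusted p = 0.0531 to 0.0997) and PER19 without replicate 1 or 2 without sucrose or replicate 2 with it (0.117 to 0.302). PER24 lost it in Col-0 without replicate 3 on either medium (0.0628 and 0.146) and in GNLox without replicate 1 or 2 without sucrose (0.0974 and 0.0989), and PER33 in Col-0 without replicate 2 or 3 without sucrose or replicate 1 or 2 with it (0.0675 to 0.109). A further 6 (PER9, PER22, PER26, PER27, PER53 and PER56) passed it in GNLox alone, and PER28 in Col-0 and gnc gnl. The PER26 call ended by DESeq2 (adjusted p = 0.0632) and without any GNLox library but replicate 1 with sucrose (0.0793 to 0.124), and that of PER56 without replicate 3 on either medium (0.0522 and 0.101). None of these differences between genotypes passed its own test. PER34, PER43, PER46, PER50, PER51, PER52 and PER72 passed in no genotype. Of all genes 26, 17.9 and 28.7% were called higher in Col-0, gnc gnl and GNLox, each taken alone. The shares of all genes with these patterns over the 3 genotypes were not computed. The pattern counts therefore describe these members only and do not set them apart from other genes.

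**Figure D2:**
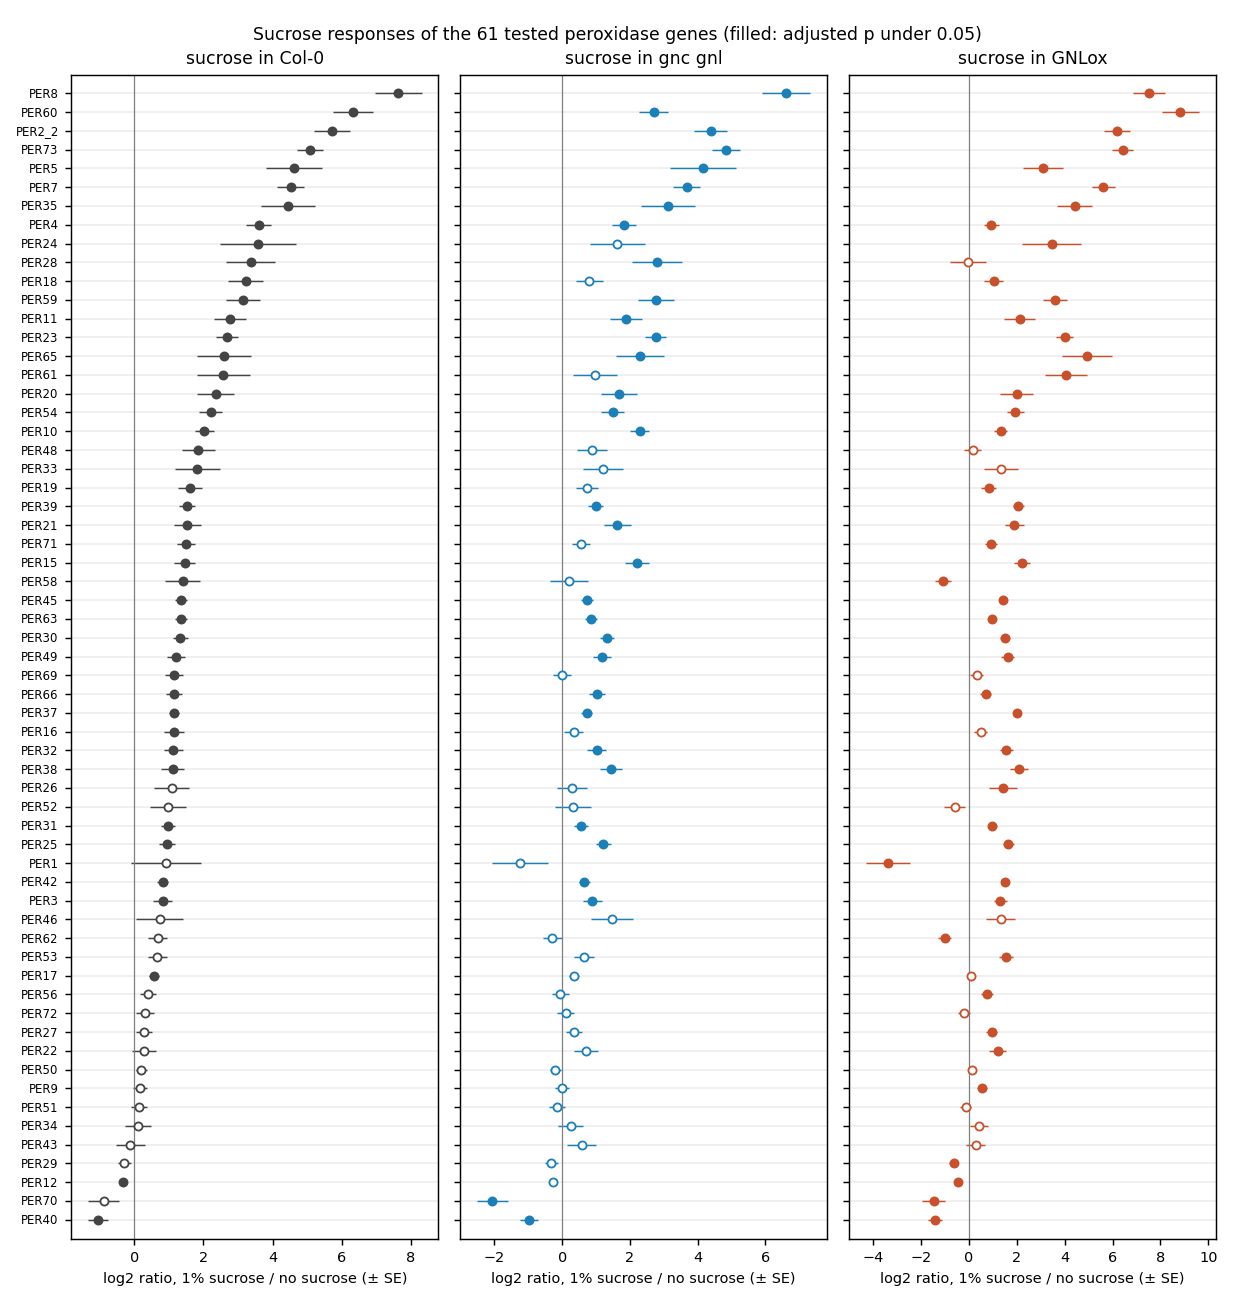
Log2 ratio of the level with 1% sucrose to that without (x axis, ± SE) for the 61 tested members (y axis, ordered by the ratio in Col-0), 1 panel per genotype. Filled circles have an adjusted p under 0.05. The root hair genes PER8 and PER60 stand at the top and PER40 at the bottom in Col-0.

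Root hair peroxidases rose together with sucrose. The list held 7 genes, of which PER7, PER8, PER35, PER60, PER73 and the list gene AT4G26010 were tested, and all 6 rose in each genotype. Of all tested genes 26, 17.9 and 28.7% were called higher in Col-0, gnc gnl and GNLox. The members that rose are described next. The median log2 ratio of the 6 tested list genes was 5.44 in Col-0, 4.16 in gnc gnl and 6.03 in GNLox, the last 5.67 with PER60 at its lower bound. PER60 and PER73 are annotated as root hair specific genes 18 and 19. In promoters, root hair genes are known for a short element, searched here as TGNNNNCACG or TGNNNNNCACG on both strands in the 250 bases before the annotated start. It was found in 2470 of 27419 promoters of protein-coding genes (9.01%), in 11 of 69 members (15.9%) and in 3 of the 6 members on the root hair list. These 3 promoters are shown because they hold a match, and their genes rose with sucrose in each genotype. They come from the RefSeq genome TAIR10.1, are written 5′ to 3′ on the gene's own strand and end at the base before the start, and capitals mark the matches.
PER7 (chr1:10991228-10991477, plus strand): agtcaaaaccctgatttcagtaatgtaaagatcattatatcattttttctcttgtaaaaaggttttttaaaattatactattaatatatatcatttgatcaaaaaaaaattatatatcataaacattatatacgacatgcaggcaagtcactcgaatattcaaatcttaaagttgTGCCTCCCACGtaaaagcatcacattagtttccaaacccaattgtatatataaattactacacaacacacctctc
PER60 (chr5:7426060-7426309, plus strand): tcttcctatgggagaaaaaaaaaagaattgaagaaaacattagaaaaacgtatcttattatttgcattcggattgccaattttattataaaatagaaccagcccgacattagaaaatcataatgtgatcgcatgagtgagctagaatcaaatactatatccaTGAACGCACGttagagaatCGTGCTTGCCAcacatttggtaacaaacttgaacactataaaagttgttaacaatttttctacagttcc
PER73 (chr5:26894528-26894777, plus strand): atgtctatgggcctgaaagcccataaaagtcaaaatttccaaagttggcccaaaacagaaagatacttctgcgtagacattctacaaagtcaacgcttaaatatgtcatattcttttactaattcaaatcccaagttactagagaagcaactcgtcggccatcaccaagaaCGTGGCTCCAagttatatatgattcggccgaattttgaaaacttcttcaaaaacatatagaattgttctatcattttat
The match began 75 bases before the start in PER7 and 79 in PER73, and PER60 held 2, from 88 and 69 bases before the start. A match of letters does not show that the element is used, and the window of PER8 and PER35, which also rose, held none. PER2_1, the remaining member on the list, was not tested.

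PER73 stood at 0.228, 0.132 and 0.234 CPM in Col-0 without sucrose and 6.84, 6.2 and 7.73 CPM with it (log2 5.09 ± 0.38, adjusted p = 6.62e-07). PER7 rose from 0.748, 0.263 and 0.337 to 10.4, 7.51 and 13 CPM (log2 4.53 ± 0.39, adjusted p = 1.69e-06). Both genes overlap an antisense neighbour, and because the strand of the reads is not stated, reads of the neighbours cannot be told apart. PER8 had 1 read in Col-0 without sucrose over 3 libraries and 3.09, 2.47 and 2.54 CPM with it, a pooled ratio of 266 (95% interval 47.3 to 10548). In gnc gnl and GNLox the pooled ratios of PER8 were 127 (95% interval 22.5 to 5045) and 246 (95% interval 43.8 to 9727), again over 1 read each. PER60 had 2 reads in Col-0 without sucrose and 2.01, 1.76 and 1.97 CPM with it, a ratio of 95.3 (95% interval 26 to 793). It had no read in GNLox without sucrose and 1.95, 1.19 and 1.8 CPM with it, which is at least 51.9-fold higher when 3 counts over the group are taken as the floor. In gnc gnl PER60 rose from 0.178, 0.0412 and 0.285 to 0.96, 1.36 and 1.2 CPM (log2 2.71 ± 0.43), and the groups did not overlap. PER35 rose from 3 reads to 0.791, 0.566 and 0.871 CPM in Col-0, a ratio of 24.8 (95% interval 8.17 to 123). None of the 6 tested root hair peroxidases overlapped between the media in any genotype, while the untested PER2_1 did in Col-0 and gnc gnl. The share of all genes without overlap was not computed. PER8, PER35 and PER60 had few reads without sucrose and could pass the low-count filter through the sucrose groups alone. Their lack of overlap is therefore no added support. The intervals and bounds above cover counting error only.

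Known root hair genes that are no peroxidases moved with them. The 8 markers COBL9, EXPA7, EXPA18, LRX1, PRP3, RSL4, RSL2 and RHD6 summed to 2.32 ± 1.15 CPM in Col-0 without sucrose and 45.8 ± 7.92 CPM with it, and 8 of 8 passed the test. Beside these marker counts, 26, 17.9 and 28.7% of all genes were called higher in Col-0, gnc gnl and GNLox. The marker sums were 3.36 ± 0.826 and 27.9 ± 3.58 CPM in gnc gnl and 1.42 ± 0.293 and 35.6 ± 10.5 CPM in GNLox, with 7 of 8 markers higher in each, RSL4 being the exception (adjusted p = 0.154 and 0.0792). All 8 had reads in Col-0 and gnc gnl on both media, and 1 had none in GNLox without sucrose. In whole seedlings, fewer cells of a type and less RNA per cell cannot be told apart, and the part of root hair number in the peroxidase result was not tested.

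**Figure D3:**
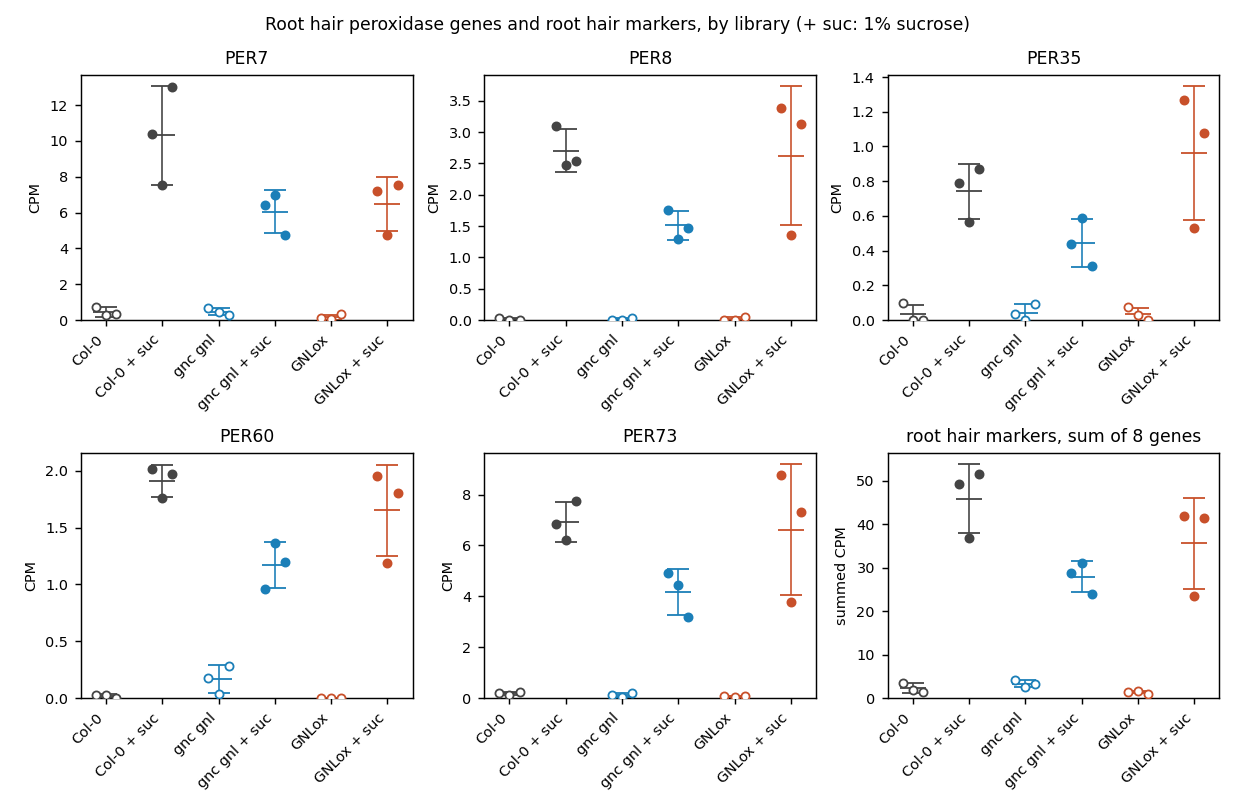
Levels in CPM of 5 root hair peroxidase genes and, in the last panel, the summed CPM of 8 root hair markers. Circles are libraries (open without, filled with 1% sucrose), dashes and bars the mean ± SD of 3 libraries, and y axes start at 0. Every library with sucrose lies above every library without it in each genotype and panel.

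Peroxidases of defence and the oxidative burst rose in part. Of the 7 listed genes, all tested, 5 rose in Col-0, 3 in gnc gnl and 4 in GNLox, where 1 also fell. Of all genes 49.8, 32.2 and 54.8% were called in either direction in these comparisons, and 26, 17.9 and 28.7% were higher. PER4 and PER5 are neighbours on chromosome 1 with coding sequences 72.3% identical. PER5 stood at 0.228, 0.0987 and 0.104 CPM in Col-0 without sucrose and at 3.13, 3.43 and 4.12 CPM with it (log2 4.62 ± 0.82, adjusted p = 0.000363). PER4 went from 2.41, 1.71 and 1.74 to 22.5, 24.3 and 24.4 CPM (log2 3.6 ± 0.36, adjusted p = 4.64e-06). The groups did not overlap for either gene. In gnc gnl with sucrose, replicate 1 was low for both, at 0.329 CPM against 1.95 and 1.67 for PER5 and 3.43 against 11 and 10.7 for PER4. The same library was also the lowest of its group for PER11, PER20, PER28 and PER62. It was the highest for PER8 (1.76 against 1.3 and 1.47 CPM) and PER2_2 (12.9 against 12.8 and 10.3 CPM), and the members going each way were not counted. Without gnc gnl with sucrose replicate 1, 29 members rose and 1 fell in gnc gnl. PER37 rose in each genotype, from 7.22, 5.26 and 4.8 to 13.9, 13 and 11.5 CPM in Col-0 (log2 1.15 ± 0.15) and from 5.24, 4.84 and 4.66 to 21, 17.6 and 21.4 CPM in GNLox (log2 2.02 ± 0.15). Its close copy PER38, with a coding sequence 93.8% identical, also rose in each genotype. PER71 rose in Col-0 and GNLox (log2 1.5 ± 0.26 and 0.94 ± 0.26).

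Lignin and vascular genes were mixed. Of the 9 listed genes, all tested and 8 of them members, 5 rose and 1 fell in Col-0 and GNLox, and 3 rose in gnc gnl. Of all genes 49.8, 32.2 and 54.8% were called in either direction in Col-0, gnc gnl and GNLox, and 26, 17.9 and 28.7% were higher. The 3 of 9 called in gnc gnl is near the share called there in either direction. PER2_2, whose reads cannot be told from those of the root hair list gene PER2_1, had the largest ratio on the list, from 0.846, 0 and 0.337 to 25.2, 16.3 and 21 CPM in Col-0 (log2 5.72 ± 0.51, adjusted p = 2.02e-06), and rose in gnc gnl and GNLox as well (log2 4.39 ± 0.49 and 6.19 ± 0.55). PER66, known from xylem vessel formation, rose from 25.7, 19.1 and 20.0 to 50.7, 50.6 and 42.4 CPM in Col-0, and PER25 from 10.7, 8.55 and 8.07 to 19.7, 19.5 and 13.5 CPM, and both rose in each genotype. In GNLox the call of PER66 ended without the replicate 2 or 3 grown without sucrose or the replicate 3 grown with it (adjusted p = 0.053 to 0.069). PER17 rose in Col-0 (log2 0.57 ± 0.15, adjusted p = 0.00644). The gene that fell, AT4G33420, is no member. Xylem markers moved with sucrose too: the 6 genes CESA4, CESA7, CESA8, XCP1, XCP2 and VND7 all rose in each genotype, their sum going from 67.9 ± 12.7 to 246 ± 11.3 CPM in Col-0, from 75.7 ± 17.4 to 184 ± 23.4 in gnc gnl and from 90.4 ± 13.1 to 218 ± 36.2 in GNLox. Their part in the result was not tested.

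Of the 4 peroxidases known for Casparian strip lignin, PER3 and PER39 rose in each genotype. In Col-0, gnc gnl and GNLox 2, 2 and 3 of the 4 were called, beside 49.8, 32.2 and 54.8% of all genes. The share in Col-0 is near that of all genes, and these shares also stand beside the endodermis counts below. PER39 went from 20.0, 19.4 and 15.9 to 62.8, 58 and 39.9 CPM in Col-0 (log2 1.54 ± 0.23) and from 30.3, 20.1 and 16.7 to 109, 80.5 and 91.7 CPM in GNLox (log2 2.06 ± 0.23). PER9 passed the test in GNLox alone (log2 0.16, 0.0 and 0.55 in Col-0, gnc gnl and GNLox), and PER72 in no genotype. The PER9 call ended without GNLox replicate 2 or 3 without sucrose or replicate 1 or 3 with it (adjusted p = 0.0746 to 0.135). In gnc gnl the PER3 call ended without replicate 1 or 2 without sucrose or replicate 1 or 3 with it (adjusted p = 0.0619 to 0.0884). The 7 endodermis markers, CASP and MYB36 genes among them, summed to 408 ± 109 CPM without and 461 ± 35.9 CPM with sucrose in Col-0, 269 ± 58.9 and 273 ± 32.5 CPM in gnc gnl and 445 ± 114 and 373 ± 82.1 CPM in GNLox. By edgeR, 0 of 7 passed in Col-0, where 1 had an unadjusted p under 0.05, 0 of 7 in gnc gnl, where none had, and CASP5 alone, which fell, in GNLox.

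UPB1 itself fell with sucrose in each genotype (log2 -1.24 ± 0.34, -1.17 ± 0.34 and -1.89 ± 0.34; adjusted p = 0.00676, 0.0168 and 0.000291). Its level in Col-0 was 25.3, 19.7 and 23.4 CPM without and 9.17, 11.3 and 8.5 CPM with sucrose. In gnc gnl it was 6.16, 17.0 and 22.3 CPM without and 6.53, 5.35 and 8.21 CPM with sucrose, and these groups overlapped. In GNLox it was 43.5, 28.1 and 26.0 CPM without and 10.5, 8.42 and 7.48 CPM with sucrose. No fit with a library left out is given for UPB1. Of its 3 listed target peroxidases, PER39 and the list gene AT5G17820 rose in each genotype and PER40 fell in each. Beside them, 49.8, 32.2 and 54.8% of all genes were called in Col-0, gnc gnl and GNLox. PER40, known from the anther tapetum, stood at 2.34, 2.47 and 2.7 CPM in Col-0 without sucrose and 1.65, 0.983 and 1.02 CPM with it (log2 -1.05 ± 0.28, adjusted p = 0.0063), with log2 ratios of -0.97 ± 0.27 in gnc gnl and -1.42 ± 0.29 in GNLox. Introns held 45.8% of its reads in Col-0 without sucrose and 29.4% with it. With exon reads alone, its call ended in Col-0 and gnc gnl (log2 -0.71 in both, adjusted p = 0.0557 and 0.0636), and in gnc gnl also without the sucrose replicate 1 or 3 (adjusted p = 0.0581 and 0.0554).

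Few other members fell. PER12, at 116, 115 and 112 CPM without and 81.2, 83.8 and 109 CPM with sucrose in Col-0, fell there (log2 -0.32 ± 0.12, adjusted p = 0.0326) and in GNLox (log2 -0.43 ± 0.12, adjusted p = 0.00673). In Col-0 the call ended when any library but Col-0 with sucrose replicate 3 was left out (adjusted p = 0.0624 to 0.141). PER70 fell in gnc gnl from 39.1, 19.3 and 10.1 to 5.81, 5.14 and 5.4 CPM (log2 -2.06 ± 0.46, adjusted p = 0.0037) and in GNLox from 9.86, 9.78 and 6.74 to 2.52, 2.14 and 4.99 CPM (log2 -1.46 ± 0.47, adjusted p = 0.0156). Its GNLox call ended without GNLox with sucrose replicate 1 or 2 (adjusted p = 0.0579 and 0.0591). Its neighbours on chromosome 5, PER69 and PER71, with coding sequences 68.3 and 61.1% identical to it, both rose in Col-0. In GNLox, PER62, PER29, PER58 and PER1 also fell. PER1 went from 0.67, 7.35 and 9.07 to 0.312, 0.75 and 0.528 CPM (log2 -3.38 ± 0.92, adjusted p = 0.0062). PER62, of the defence list, went from 148, 138 and 113 to 70.1, 67.9 and 62 CPM (log2 -1.0 ± 0.28, adjusted p = 0.00776). PER29 went from 8.99, 16.5 and 16.1 to 8.68, 9.15 and 9.01 CPM (log2 -0.63 ± 0.2), and its call ended without GNLox without sucrose replicate 2 or 3 (adjusted p = 0.091 and 0.0793).

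Other members that rose in Col-0 included PER23, PER59 and PER28. PER59 went from 2.67, 1.51 and 2.02 to 27.6, 19.8 and 7.81 CPM (log2 3.15 ± 0.5) and rose in gnc gnl and GNLox (log2 2.77 ± 0.52 and 3.58 ± 0.5). PER28 stood at 1.07, 1.15 and 0.882 CPM without and 13, 12.8 and 6.35 CPM with sucrose in Col-0 (log2 3.37 ± 0.71), and at 1.14, 0.727 and 1.55 and 0.806, 1.5 and 0.945 CPM in GNLox (log2 -0.02 ± 0.75). The difference of these responses did not pass the test (adjusted p = 0.118). The PER28 call in gnc gnl ended with only the groups compared in the fit (adjusted p = 0.0838). PER61 rose in GNLox from 0.174, 0 and 0.0518 to 1.35, 1.57 and 1.36 CPM (log2 4.06 ± 0.86).

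PER22 and PER23 are neighbours on chromosome 2, 897 bases apart, and are described after their values were seen. Their coding sequences, 1050 bases each, are 90.6% identical. PER23 rose in each genotype, from 5.37, 3.58 and 3.69 to 28.7, 27.1 and 25.3 CPM in Col-0 (log2 2.68 ± 0.31, adjusted p = 1.69e-05), and the groups did not overlap. PER22 stood at 79.1, 48.2 and 42.2 CPM without and 73.4, 64.3 and 67.6 CPM with sucrose and did not pass the test in Col-0 (log2 0.28 ± 0.35, adjusted p = 0.532), and was called higher in GNLox (log2 1.21 ± 0.35). There its libraries overlapped, 55.1, 29.7 and 23.7 CPM without and 103, 39.3 and 109 CPM with sucrose, and the call ended with only the groups compared (adjusted p = 0.0726). The difference between the genes was not tested. The first 120 coding bases are shown to let the copies be compared. They come from RefSeq TAIR10.1, plus strand, and the 10 bases that differ are in capitals.
PER22 (chr2:16076443-16076562): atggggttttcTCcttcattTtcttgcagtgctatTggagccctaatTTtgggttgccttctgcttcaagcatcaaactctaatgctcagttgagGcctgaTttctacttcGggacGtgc
PER23 (chr2:16079726-16079845): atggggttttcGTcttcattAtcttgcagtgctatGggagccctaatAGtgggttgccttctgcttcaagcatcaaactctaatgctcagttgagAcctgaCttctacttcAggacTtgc
Of the neighbouring pairs, PER2_1 and PER2_2 could not be separated by the reads they share. They have coding sequences of 978 bases that are 100% identical, and the tables gave 74 reads to PER2_1 and 5920 to PER2_2, of which 0% were unique to PER2_2. By the shared reads, the rise described for PER2_2 is therefore that of either copy or of both. Reads unique to PER2_1, 44.59% of its own, numbered 8 without and 7 with sucrose in Col-0. They numbered 4 and 8 in gnc gnl and 1 and 5 in GNLox, and so showed no rise of the size counted for PER2_2. PER33, with a coding sequence 90.4% identical to that of PER34, stood at most at 0.576 CPM in any library.

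Genes that make or remove the substrates of these enzymes were described for comparison. Of 9 tested RBOH genes, the NADPH oxidases that make superoxide, 7 rose in Col-0, 6 in gnc gnl and 5 in GNLox, and none fell. Of all tested genes 49.8, 32.2 and 54.8% were called in either direction and 26, 17.9 and 28.7% were higher. These shares also stand beside the next counts, and the 5 of 9 called in GNLox is at the share called in either direction. RBOHC, known for root hair growth, rose in each genotype (log2 1.85 ± 0.21, 0.84 ± 0.2 and 1.34 ± 0.21). Of 7 superoxide dismutases, CSD1, CSD2 and MSD1 rose in each genotype and FSD1 fell in each, with CSD3 also falling in Col-0 and GNLox. Of 3 catalases, which remove hydrogen peroxide, CAT1 fell in each genotype (log2 -0.79, -0.5 and -1.47) and CAT2 in Col-0 and GNLox. The CAT1 libraries overlapped between the media in gnc gnl (adjusted p = 0.0412, edgeR), as did those of CAT2 in Col-0. CAT3, with the highest level of the 3, was called in no genotype. In Col-0 it averaged 5019.7 CPM without and 5286 CPM with sucrose, against 648 for CAT2 and 63.7 for CAT1 without it. Of 7 tested ascorbate peroxidases, 3 rose and 2 fell in Col-0 and GNLox, and APX5 alone passed in gnc gnl, where it rose.

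The second comparison set the mutant lines against Col-0 on the same medium. Between gnc gnl and Col-0 few members were called. Without sucrose, 1 of 61 tested members was called, PER18, against 1.29% of all genes (0.991% higher and 0.301% lower). PER18 was outside the naming rule because of its low level and is named after its values were seen. It stood at 1.07, 0.453 and 0.727 CPM in gnc gnl and 0.0976, 0.0987 and 0.156 CPM in Col-0 (log2 2.62 ± 0.53, adjusted p = 0.0295). The call ended when any Col-0 library or gnc gnl replicate 1 was left out (adjusted p = 0.0929 to 0.17). With sucrose, edgeR called 0 of 61, against 0.16% of all genes (0.0548% higher and 0.105% lower), while 20 had an unadjusted p under 0.05, as had 16.6% of all genes, and DESeq2 called 2, beside 1.56% of all genes. The median log2 ratio of the tested members there was -0.36, and 0 over all genes. The member nearest to a call was PER4, at 3.43, 11 and 10.7 CPM in gnc gnl and 22.5, 24.3 and 24.4 CPM in Col-0 (log2 -1.5 ± 0.32, adjusted p = 0.0874).

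Between GNLox and Col-0 more members were called than between gnc gnl and Col-0, as were more of all genes. Without sucrose 7 were higher and 9 lower (26.2% of the tested members), against 6.53 and 7% of all genes (13.5% together). With sucrose 4 were higher and 8 lower (19.7%), against 10.2 and 10.2% of all genes (20.4% together). The share of members called with sucrose is thus near that of all genes. The median log2 ratio of the tested members was -0.33 and -0.16, and 0 over all genes on both media. Without sucrose, the called members fell to 6 higher and 4 lower without GNLox without sucrose replicate 3, to the same counts without Col-0 without sucrose replicate 1, and to 6 and 3 without GNLox without sucrose replicate 2. With sucrose, 1 higher and 6 lower were called without Col-0 with sucrose replicate 3, and 1 and 5 without GNLox with sucrose replicate 1. Called lower on both media were PER11, PER20, PER50 and PER51, and higher on both PER48 and PER58.

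PER11 was the member with the largest decrease on both media. It stood at 0.397, 0.28 and 0.155 CPM in GNLox and 3.42, 2.8 and 1.97 CPM in Col-0 without sucrose (log2 -3.17 ± 0.62, adjusted p = 0.00493). With sucrose it stood at 1.17, 1.1 and 1.67 CPM in GNLox and 19.8, 19.8 and 15.9 CPM in Col-0 (log2 -3.81 ± 0.49, adjusted p = 0.00048). No library of the lines overlapped on either medium, and the gene still rose with sucrose within GNLox (log2 2.13 ± 0.65). PER20 showed 0.621, 0.252 and 0.104 against 3.25, 1.74 and 1.56 CPM without sucrose (log2 -2.57 ± 0.68, adjusted p = 0.0219) and 1.12, 0.772 and 2.48 against 12, 11.8 and 9.66 CPM with it (log2 -2.92 ± 0.54, adjusted p = 0.00249). Its call without sucrose ended without GNLox without sucrose replicate 2 or 3 or Col-0 without sucrose replicate 1 (adjusted p = 0.0865, 0.0665 and 0.0741).

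PER50 and PER51, neighbours on chromosome 4 that are 1446 bases apart and 77.9% identical in coding sequence, were lower together. PER50 stood at 115, 99.3 and 93.1 CPM in GNLox and 183, 176 and 167 CPM in Col-0 without sucrose (log2 -0.78 ± 0.17, adjusted p = 0.00763), and at 101, 84.2 and 148 and 184, 182 and 241 CPM with it (log2 -0.87 ± 0.17, adjusted p = 0.00313). PER51 stood at 19.9, 15.3 and 11.3 and 29.8, 25 and 23.6 CPM without sucrose (log2 -0.74 ± 0.23, adjusted p = 0.0468) and at 12.4, 10.2 and 20.5 and 27, 27.5 and 31.7 CPM with it (log2 -1.0 ± 0.23, adjusted p = 0.00837). Neither gene overlapped between the lines on either medium. The call of PER51 without sucrose ended with the replicate number as a block (adjusted p = 0.057), which the check of pairing allows in this comparison, and without any library but GNLox without sucrose replicate 1 (adjusted p = 0.0718 to 0.159). When only the groups compared were fitted, the calls of PER50 and PER51 with sucrose ended (adjusted p = 0.0629 and 0.0585).

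Among members higher in GNLox, PER58 was raised without sucrose to 2.19, 1.06 and 1.35 CPM from 0.13, 0.132 and 0.104 CPM (log2 3.64 ± 0.44, adjusted p = 0.000479). With sucrose it stood at 1.04, 0.573 and 0.594 and 0.468, 0.298 and 0.231 CPM (log2 1.16 ± 0.39, adjusted p = 0.0498). This second call ended by DESeq2 (adjusted p = 0.0593), with RLE size factors (0.052), and without Col-0 replicate 2 or 3 or GNLox replicate 1 (0.128 to 0.217). PER48, in both lines under 1 CPM and named after its values were seen, had 0.472, 0.671 and 0.674 against 0.163, 0.0658 and 0.026 CPM without sucrose (log2 2.83 ± 0.46). Its call with sucrose ended without Col-0 replicate 1 or 3 or GNLox replicate 1 or 3 (adjusted p = 0.0766 to 0.134). PER52, known for lignin formation in the stem, stood at 5.02, 5.09 and 6.27 CPM in GNLox and 1.66, 0.822 and 0.182 CPM in Col-0 without sucrose (log2 2.64 ± 0.5, adjusted p = 0.00396), with no overlap. With sucrose it missed the threshold (log2 1.08 ± 0.46, adjusted p = 0.11). PER62 stood at 148, 138 and 113 against 77.9, 46.1 and 48.2 CPM without sucrose (log2 1.21 ± 0.28, adjusted p = 0.0121), a call that ended without Col-0 without sucrose replicate 2 or 3 (adjusted p = 0.0593 and 0.0533). PER18 was also higher there. The peroxiredoxin gene PER1, at 0.67, 7.35 and 9.07 CPM in GNLox and 0.293, 0.625 and 0.623 CPM in Col-0, was called (log2 3.43 ± 0.95, adjusted p = 0.0272), but not without any library but GNLox without sucrose replicate 1 (adjusted p = 0.076 to 0.0861). Its replicate 1 in GNLox, at 0.67 CPM, was far below the other libraries of the group.

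Members called lower in GNLox without sucrose and not with it were PER23, PER25, PER27, PER38 and PER53. PER25 stood at 5.51, 4.17 and 3.11 against 10.7, 8.55 and 8.07 CPM (log2 -1.07 ± 0.23, adjusted p = 0.00806). PER23 stood at 1.94, 1.51 and 1.4 against 5.37, 3.58 and 3.69 CPM (log2 -1.35 ± 0.35, adjusted p = 0.02), PER53 at 1.71, 0.699 and 1.09 against 3.51, 2.34 and 2.21 CPM (log2 -1.18 ± 0.31), and PER27 at 53.4, 43.9 and 37.4 against 96.3, 81.6 and 59.3 CPM (log2 -0.81 ± 0.24). The calls of PER23, PER53 and PER27 each ended without Col-0 without sucrose replicate 1 or GNLox without sucrose replicate 2 or 3 (adjusted p = 0.0587 to 0.128), and that of PER27 also without Col-0 without sucrose replicate 2. The call of PER38 ended without Col-0 without sucrose replicate 2 or GNLox without sucrose replicate 2 or 3 (adjusted p = 0.0503 to 0.0777). Called with sucrose and not without it were PER28, PER16 and PER69, lower in GNLox, and PER37 and PER39, higher. Apart from PER4, no member passed a test of the difference between media. PER28 stood at 0.806, 1.5 and 0.945 CPM in GNLox against 13, 12.8 and 6.35 CPM in Col-0 (log2 -3.29 ± 0.69, adjusted p = 0.00518). PER16 stood at 16.8, 15.7 and 28.9 against 44.9, 47.4 and 44.7 CPM (log2 -1.16 ± 0.28), a call that ended without GNLox with sucrose replicate 1 (adjusted p = 0.0553). PER69 stood at 285, 229 and 385 against 518, 454 and 589.5 CPM (log2 -0.8 ± 0.26, adjusted p = 0.0414), and its call ended without any library but GNLox with sucrose replicate 3 (adjusted p = 0.0578 to 0.125). PER37 was higher by 0.65 ± 0.14 and PER39 by 0.81 ± 0.22 on the log2 scale (adjusted p = 0.00576 and 0.0202), and the call of PER39 ended without Col-0 with sucrose replicate 3 or GNLox with sucrose replicate 1 (adjusted p = 0.0864 and 0.0887). No root hair peroxidase was called between GNLox and Col-0 by edgeR, with 2 of 6 at an unadjusted p under 0.05 without sucrose and 1 of 6 with it. Of all genes 27.7% without and 35.0% with sucrose had such a p, and 13.5 and 20.4% were called. Of the 8 root hair markers, 1 was called lower in GNLox on each medium, beside 7 and 10.2% of all genes.

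**Figure D4:**
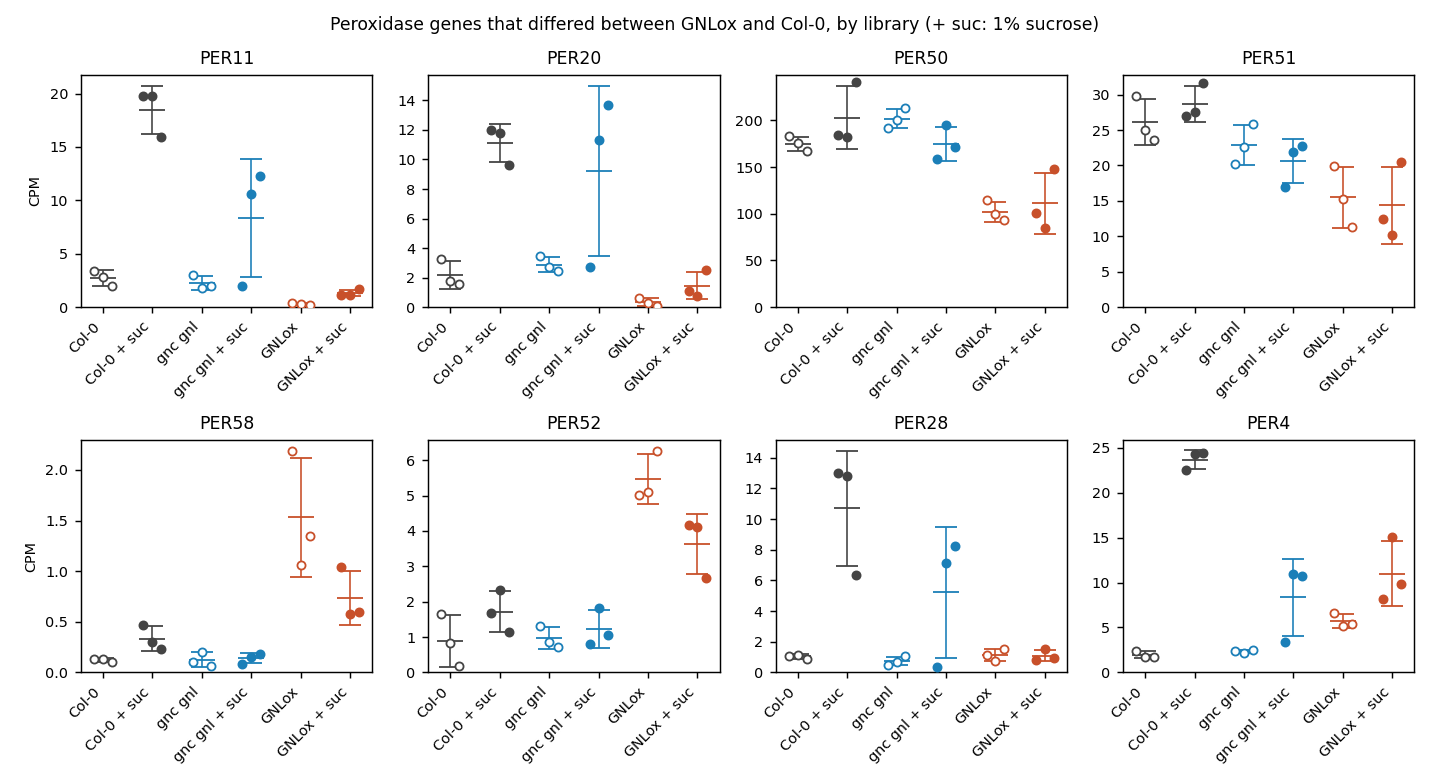
Levels in CPM of 8 members that differed between GNLox and Col-0 on at least 1 medium. Circles are libraries (open without, filled with 1% sucrose), dashes and bars the mean ± SD of 3 libraries, and y axes start at 0. PER11 and PER20 stay below Col-0 in GNLox on both media, PER58 and PER52 stand highest in GNLox without sucrose, and PER4 in GNLox lies above Col-0 without sucrose and below it with sucrose.

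The third comparison tested whether the sucrose response itself differed from that in Col-0. For gnc gnl, edgeR called 0 of 61 members and 0% of all genes, 7 members had an unadjusted p under 0.05 (7.56% of all genes), and DESeq2 called 0 members and 0.328% of all genes. For GNLox, PER4 alone was called, against 1.12% of all genes (0.762% higher and 0.356% lower), while 15 members had an unadjusted p under 0.05 (14.9% of all genes) and DESeq2 called 6 (4.09% of all genes). PER4 (AT1G14540, chr1:4974021-4975705 in TAIR10, minus strand, 4 exons), a peroxidase known to respond to elicitors, stood at 6.58, 5.17 and 5.34 CPM in GNLox without sucrose, above each Col-0 library (2.41, 1.71 and 1.74 CPM, adjusted p = 0.0108). With sucrose it stood at 8.14, 15.1 and 9.85 CPM in GNLox, below each Col-0 library (22.5, 24.3 and 24.4 CPM, adjusted p = 0.0224). Its response was thus 3.6 ± 0.36 in Col-0 and 0.95 ± 0.32 in GNLox on the log2 scale, a difference of -2.65 ± 0.47 (adjusted p = 0.022). The rise in GNLox was not called without replicate 2 or 3 without sucrose or replicate 2 with it (adjusted p = 0.0584 to 0.1). The call of the difference ended in 5 of 12 fits that left a library out, without Col-0 without sucrose replicate 2 or 3, Col-0 with sucrose replicate 2, GNLox without sucrose replicate 3 or GNLox with sucrose replicate 1 (adjusted p = 0.0503 to 0.0777), and that with sucrose ended without Col-0 replicate 2 or 3 or GNLox replicate 1 or 3 (adjusted p = 0.0569 to 0.102). Nearest to a call after it were PER37 (difference 0.87 ± 0.21, adjusted p = 0.0544), PER62 (-1.68 ± 0.4, adjusted p = 0.0566) and PER58 (-2.48 ± 0.61, adjusted p = 0.0619). PER58 rose with sucrose in Col-0 (log2 1.4 ± 0.5), a call that ended without any Col-0 library grown without sucrose or replicate 1 grown with it (adjusted p = 0.0521 to 0.117), and fell in GNLox (log2 -1.07 ± 0.35), and the fall was no longer called without GNLox without sucrose replicate 1 or GNLox with sucrose replicate 2 or 3 (adjusted p = 0.122, 0.0633 and 0.0721).

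GNC and GNL belong to the GATA factors, which are known to bind motifs around the letters GATA. The motif, searched on both strands as AGATAA or AGATAG and as TGATAA or TGATAG, was found in the 250-base promoter of 41 of 69 members (59.4%) and of 54.0% of all 27419 promoters. The W-box core TTGAC, known from defence genes, was in 29 of 69 members (42.0%) and 44.9% of all promoters, and the G-box CACGTG in 4 of 69 (5.8%) and 6.48%. Single matches to such short motifs occur often and show no binding.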

How the data were processed

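Per the labels' protocols, RNA was extracted with a NucleoSpin kit. The genome build was TAIR10, per the submitters' processing notes. The sources used here do not give the library kit, strand, aligner or counting program. Per the file headers, the deposited tables hold, for each gene, counts of all reads, of unique reads and of those in exons or introns, and RPKM, the authors' level per length and library size. Gene positions equalled those of RefSeq TAIR10.1 for 69 of 69 members.

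Total gene reads, which include reads with more than 1 match and intron reads, entered edgeR 4.0.16 (R 4.3.3). Its filter on low counts kept 21903 genes, and libraries were scaled by trimmed means of M values (TMM). A single model of 6 group means over 18 libraries was fitted by robust quasi-likelihood, with 12 residual degrees of freedom and a common dispersion of 0.0289. A gene was called at a two-sided Benjamini-Hochberg adjusted p under 0.05 over all tested genes, within a comparison. CPM are counts scaled to TMM-adjusted library size, given per replicate or as mean ± SD (n = 3), and log2 ratios carry their SE. Ratios over 1 to 3 reads have exact 95% intervals. The steps were tested on simulated data. Members and lists were chosen with earlier results of these data known.

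Members were named if among the 8 highest in mean RPKM, or among the 8 largest increases or decreases called in a comparison with a mean of at least 1 CPM in a compared group, or among the 6 called differences with the smallest adjusted p. Alternatives were RLE size factors, no filter, DESeq2 1.42.0, only the groups compared, a replicate block, unique reads, exon reads, nuclear genes without rRNA, and each library left out, where a group left with 2 libraries shares the pooled spread. Leaving out the peroxiredoxin gene was added after seeing the data. Same-numbered libraries deviated together in GNLox against Col-0 without sucrose (correlations 0.409, 0.126 and 0.26 over genes). Only the replicate block took the numbers as pairs, and the reported fit did not. Pairing in this comparison comes from the data, as the labels do not say what a number marks.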

Additional observations from a re-analysis of the deposited data

Results flagged for a closer look

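The sucrose response of PER4 differed between GNLox and Col-0 by a test of the difference itself. The log2 ratio was lower in GNLox by 2.65, a difference of -2.65 ± 0.47 (SE, adjusted p = 0.022, edgeR). In all 3 GNLox libraries without sucrose PER4 was above the 3 of Col-0, and in all 3 with sucrose below them. The call of the difference ended in 5 of 12 fits that left a library out (adjusted p = 0.0503 to 0.0777, edgeR). PER4 was the only 1 of 61 tested members called (1.64%), near the 1.12% of all genes called.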

How the results depend on the processing

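The direction of all 59 results on named members was kept in every alternative, 38 passed the threshold in every one and 21 missed it in some. With a library left out, sucrose called 38 to 46 members in Col-0 (44 in the reported fit), 27 to 34 (33) for gnc gnl and 39 to 45 (48) for GNLox, and changed by less than 1.5 times in the other fits. Of all 21903 tested genes, 8627 to 10789 were called in Col-0 with a library left out (10903 in the reported fit). The counts of all genes were 4656 to 7107 (7063) for gnc gnl and 10216 to 12352 (11997) for GNLox. For gnc gnl against Col-0 without sucrose, 1 member was called, 2 with the replicate block, 0 with only the groups compared, 3 by DESeq2 and 0 to 2 with a library left out. In the same order, 283, 500, 31, 1040 and 20 to 930 of all genes were called. With sucrose, 0 members were called, 1 with only the groups compared, 2 by DESeq2 and 0 in each fit without a library. Of all genes 35, 83, 341 and 16 to 26 were called in these fits. For GNLox against Col-0 without sucrose, 16 members were called, 15 with the replicate block, 11 with only the groups compared and 9 to 17 with a library left out. In the same order, 2964, 3111, 1209 and 1524 to 2544 of all genes were called. With sucrose, 12 members were called, 7 with only the groups compared and 6 to 12 with a library left out. Of all genes 4464, 1568 and 2154 to 4608 were called in these fits. For the difference of the GNLox response, 1 member was called, 2 with the replicate block, 2 with unique reads, 3 with only the groups compared, 6 by DESeq2 and 0 to 2 with a library left out. In the same order, 245, 295, 249, 189, 879 and 2 to 381 of all genes were called. For the difference of the gnc gnl response 0 members were called in each fit. The cause of these changes was not tested. In the comparisons other than GNLox against Col-0 without sucrose, same-numbered libraries correlated from -0.391 to 0.346 and did not show a pairing, and in no comparison did every sample correlate best with its own number. PER2_2 has no value with unique reads, since none of its reads was unique. Low reads limit PER8, PER35 and PER60 without sucrose.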
